A study of Mus musculus with 4 samples.

Results

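Immediate early genes are switched on within minutes of a stimulus, without new protein synthesis, and enzymatic isolation of a tissue is a known trigger of them. The list described here holds 36 such genes and heat shock chaperone genes, chosen by symbol from the 55536 genes of the count table, and all 36 were found. The libraries were made from polyadenylated RNA of islets, the endocrine part of the pancreas, taken from 8-week-old male C57BL/6 mice. Islets were freed with collagenase injected through the bile duct, and the protocol text adds an Accutase dissociation for a single-cell run without saying whether the bulk islets went through it. Of the 4 libraries, 2 were non-depleted (N1 and N2, by replicate number) and 2 insulin-depleted (D1 and D2), a commercial panel having removed insulin sequences during library preparation. Within a group the libraries are labelled as biological replicates, but all column names carry the same pair of codes. No source used here says whether separate animals were used, so spreads and p-values describe these libraries and may be technical. No library came from islets that were not put through isolation, so the part of isolation in the levels was not tested.

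In this response, growth factor, calcium and stress signals reach factors that are already present, chiefly serum response factor, CREB and heat shock factor, and these turn on the early genes. The early genes encode transcription factors such as the AP-1 subunits, EGR and NR4A proteins, and also brakes, among them phosphatases of the MAP kinases and proteins that shorten mRNA life. In beta cells, the insulin-producing cells of the islet, glucose-driven calcium entry is also known to raise several of them, so their mRNA can reflect secretory activity as well as handling. Heat shock chaperones refold damaged protein, and Hspa1a and Hspa1b are the strongly inducible HSP70 genes.

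The promoters of the list were read for sites of these factors. RefSeq windows on GRCm38.p6, running from 250 bases before to 50 bases after a transcription start, were found for 29 of the 36 genes (none for Fosl1, Egr1, Egr3, Ier2, Dusp4, Arc and Myc). The core of the cyclic AMP response element, the site of CREB, is TGACG. On either strand it occurred in 17 of the 29 genes, or 58.6%, and in 23.0% of all 27025 genes with a window. The full palindrome TGACGTCA, which contains that core, occurred in Dusp1 and Btg2, or 6.90% of the 29, against 2.03% of all genes. The CArG box, the site of serum response factor (CC and GG with 6 bases of A or T between them), was found in Egr2, Dusp5 and Zfp36, or 10.3% against 1.81%. A heat shock element, written as GAA, TTC and GAA with 2 free bases between units, occurred in Hsph1 alone (3.45% against 0.662%), just after its start, and the AP-1 site TGANTCA in 0 of 29, against 8.97% of all genes. Only these exact spellings were searched, so looser forms, such as imperfect heat shock elements, were not counted. Sites farther than 250 bases before a start were out of reach, so a gene without a match may still have one there. The matches describe letters only, members with several starts had several windows, and base composition was not matched. The stretches below lie before the start, are written 5′ to 3′ on the gene's strand, and show these letters in capitals, with the core on the opposite strand reading CGTCA. Fos, Fosb and Nr4a1 are shown for the core, Dusp1 and Btg2 for the full palindrome, and Dusp5 for a pair of adjacent CArG boxes followed by a core. None overlaps an annotated exon except that of Dusp5, which overlaps an exon of the antisense gene AC137853.2.
Fos, chr12:85473740-85473889, plus strand: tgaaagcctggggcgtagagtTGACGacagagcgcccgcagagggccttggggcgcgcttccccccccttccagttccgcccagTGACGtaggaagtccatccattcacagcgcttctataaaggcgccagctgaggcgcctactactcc
Fosb, chr7:19310076-19310135, minus strand: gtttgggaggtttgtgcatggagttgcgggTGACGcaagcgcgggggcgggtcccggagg
Nr4a1, chr15:101266756-101266825, plus strand: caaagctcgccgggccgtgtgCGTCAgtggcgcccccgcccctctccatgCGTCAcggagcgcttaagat
Dusp1, chr17:26508593-26508672, minus strand: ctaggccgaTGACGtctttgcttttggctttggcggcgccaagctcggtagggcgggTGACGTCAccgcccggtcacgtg
Btg2, chr1:134079286-134079345, minus strand: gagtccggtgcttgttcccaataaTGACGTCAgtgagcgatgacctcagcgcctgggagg
Dusp5, chr19:53529035-53529104, plus strand: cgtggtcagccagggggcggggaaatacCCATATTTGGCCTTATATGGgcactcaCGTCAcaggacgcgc

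Hspa1a and Hspa1b need their sequences shown for another reason, since they are near-identical copies. Hspa1a lies on chromosome 17 from 34969190 to 34972156 and Hspa1b from 34956436 to 34959238, both on the minus strand of GRCm38. Over the 250 bases before the start, 3 bases differ between them, an identity of 98.8%. In their transcripts, 63.8% of the 31-base stretches of Hspa1a occur unchanged in Hspa1b and 67.6% of those of Hspa1b in Hspa1a. How reads that fit both were counted is not given in the sources used here, so both the split between them and their levels are uncertain. Capitals mark the bases that differ.
Hspa1a, chr17:34972157-34972376, minus strand: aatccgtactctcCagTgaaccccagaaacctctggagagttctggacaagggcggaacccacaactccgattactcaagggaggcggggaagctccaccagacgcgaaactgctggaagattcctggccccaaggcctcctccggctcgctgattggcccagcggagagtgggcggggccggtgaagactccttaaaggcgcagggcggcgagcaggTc
Hspa1b, chr17:34959239-34959458, minus strand: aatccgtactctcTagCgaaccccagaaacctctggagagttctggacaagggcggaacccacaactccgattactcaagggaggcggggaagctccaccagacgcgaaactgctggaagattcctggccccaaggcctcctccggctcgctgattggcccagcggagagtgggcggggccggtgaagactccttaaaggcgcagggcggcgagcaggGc

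Levels are given as CPM, the usual scaling of counts to equal library size, here by library totals without Ins1 and Ins2. These totals were 48510880 counts in N1, 58127371 in N2, 19278430 in D1 and 64858544 in D2, so D1 was the shallowest. Values given as a series of 4 are in the order N1, N2, D1, D2. Ins1 and Ins2 took 4.14 and 3.97% of counts without and 0.195 and 0.264% with depletion. The 36 genes summed to 1890, 1866, 1918 and 1874 CPM, or 0.187 to 0.192% of counts. Of the 36, 8 had a mean of at least 100 CPM over the 4 libraries, 16 lay from 10 to under 100 CPM, 10 from 1 to under 10 CPM and 2 (Dusp2 and Egr4) under 1 CPM. The 6 most abundant, Junb, Socs3, Ier3, Fosl2, Btg2 and Klf6, held 50.8% of the summed level. The plot of CPM by library shows the 4 points of most genes lying close together.

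**Figure D1:**
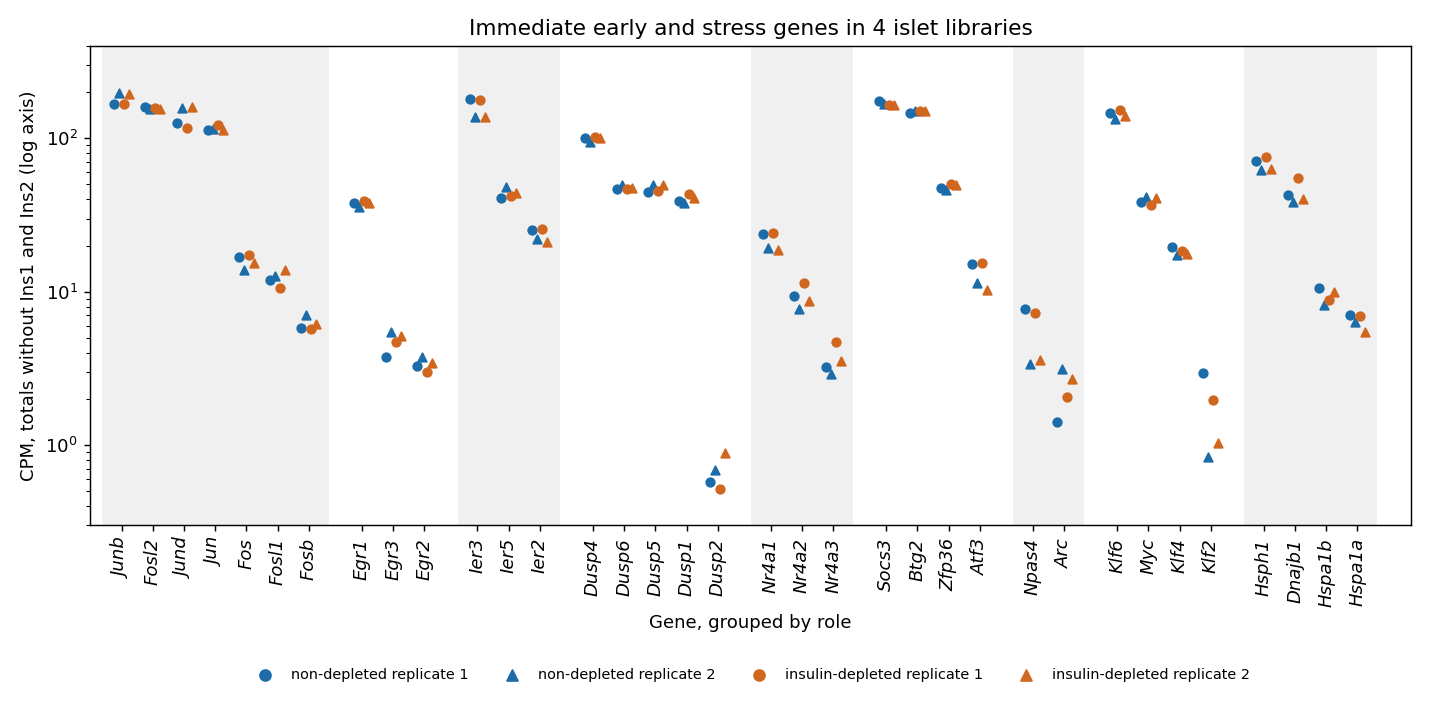
Level of 35 genes of the list in each library, in CPM of totals without Ins1 and Ins2 on a log axis, with genes grouped by role and shaded bands separating roles. Each point is 1 library; Egr4, at 0 in 3 libraries, is not drawn. Npas4, Arc and Klf2 show the widest spread between libraries.

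The AP-1 subunits bind DNA as pairs, such as a Fos with a Jun protein. Among them the Jun side and Fosl2 had the highest CPM, and the classical early members Fos and Fosb, like Fosl1, had less. Junb had 168, 197, 167 and 193 CPM. Jund, a subunit known to be present in resting cells, had 126, 157, 117 and 159 CPM, and Jun had 113, 115, 123 and 113 CPM. Fosl2 was nearly level, with 159, 156, 157 and 155 CPM. Fos (chromosome 12, 85473890 to 85477273, plus strand, GRCm38) had 16.8, 13.9, 17.4 and 15.4 CPM. In both groups Fos was somewhat higher in replicate 1. Fosb had 5.81, 7.02, 5.71 and 6.18 CPM, and Fosl1 had 11.9, 12.7, 10.6 and 13.8 CPM. The Fosl1 value is uncertain because 57.2% of its exon bases overlap the gene Ccdc85b on the other strand, and use of strand in counting is not given in the sources used here. Of the exon bases of Jund, 52.6% overlap the antisense gene Gm11175, which itself had 112, 121, 22 and 134 counts. The level and rank of Jund are therefore uncertain on the same ground.

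For levels compared between genes, CPM were divided by kilobases of exon. Per kilobase, Junb lay 9.85 to 14.5 times and Jun 4.96 to 6.08 times above Fos across the 4 libraries, while Fosl2, a long transcript, lay 2.20 to 2.72 times above it. Fos in turn was 5.27 to 8.08 times Fosb. Each of these orders held in every library.

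The EGR zinc-finger factors were led by Egr1. Egr1 had 37.6, 35.5, 39.2 and 37.6 CPM. Egr2 had 3.30, 3.77, 3.01 and 3.41 CPM and Egr3 had 3.73, 5.45, 4.67 and 5.17 CPM. Per kilobase of exon, Egr1 lay 7.13 to 9.88 times above Egr2. Egr4 was at 0 counts in 3 libraries and had 4 counts in D2, or 0.0617 CPM. Its exact 95% Poisson interval was 0.0168 to 0.158 CPM, which covers at most counting error and takes counts as independent. If both mates of a read pair were counted, which was not tested, such intervals are too narrow. On the same basis the counts of 0 allow up to 0.0760 CPM in N1, 0.0635 CPM in N2 and 0.191 CPM in D1, so no difference was detectable for Egr4 at this depth.

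Of the IER genes, Ier3 had the highest level per kilobase of the whole list. Ier3 (chromosome 17, 35821684 to 35822923, plus strand, GRCm38), which encodes a regulator of cell survival, had 181, 138, 179 and 138 CPM. Replicate 1 was the higher library in both groups. Ier2 had 25.1, 22, 25.7 and 21.2 CPM and Ier5 41.0, 47.9, 41.9 and 43.8 CPM. Ier3 exceeded Ier2 by 8.46 to 9.69 times per kilobase.

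The dual-specificity phosphatases, which switch MAP kinases off again, were well expressed, with the exception of Dusp2. Dusp4, a nuclear enzyme, had 101, 95.1, 102 and 100 CPM. Dusp1 had 38.9, 37.8, 43.5 and 40.8 CPM, D1 and D2 both exceeding N1 and N2. Dusp5 and Dusp6, a nuclear and a cytoplasmic enzyme, lay within 45.0 to 49.5 and 46.5 to 49.8 CPM. Of the exon bases of Dusp5, 22.1% overlap the antisense gene AC137853.2, so its level depends on the use of strand too. Dusp2, known from activated immune cells, had 0.577, 0.688, 0.519 and 0.894 CPM, from 28, 40, 10 and 58 counts. Per kilobase, Dusp4 was 2.83 to 3.14 times Dusp1.

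The NR4A orphan nuclear receptors fell in the order Nr4a1, Nr4a2, Nr4a3 in all 4 libraries. Nr4a1 had 23.8, 19.2, 24.3 and 18.7 CPM. Nr4a2 had 9.38, 7.67, 11.4 and 8.68 CPM and Nr4a3 had 3.22, 2.92, 4.67 and 3.52 CPM. For all 3 receptors replicate 1 was the higher library of each group. Nr4a1 lay 2.47 to 2.93 times above Nr4a2 per kilobase and 8.87 to 12.6 times above Nr4a3.

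Among the feedback and stress regulators, Socs3, an inhibitor of cytokine receptor signalling through JAK kinases, and Btg2, an antiproliferative cofactor of mRNA deadenylation, were among the highest genes of the list. Socs3 had 174, 168, 164 and 164 CPM, D1 and D2 lying below N1 and N2. Btg2 had 147, 151, 151 and 150 CPM. Zfp36, which encodes the mRNA-destabilising protein tristetraprolin, had 47.2, 46.2, 50.3 and 49.7 CPM, and the groups did not overlap. Atf3, a factor induced by many stresses, was far lower, at 15.2, 11.4, 15.3 and 10.2 CPM, and was the higher in replicate 1 of both groups.

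The activity-regulated genes were low and uneven. Npas4, a factor induced by calcium entry in neurons and beta cells (chromosome 19, 4984355 to 4990316, minus strand, GRCm38), had 7.67, 3.39, 7.26 and 3.61 CPM. Arc, best known from synapses, had 1.42, 3.13, 2.07 and 2.68 CPM. Npas4 was higher in replicate 1 and Arc in replicate 2 of each group.

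Klf6 and Myc, growth-related factors, were steady, and Klf2 was not. Klf6 had 146, 134, 154 and 140 CPM, Myc 38.2, 41.4, 36.9 and 40.8 CPM and Klf4 19.5, 17.3, 18.3 and 17.7 CPM. Klf2, a factor of endothelial cells and resting lymphocytes (chromosome 8, 72319033 to 72321656, plus strand, GRCm38), had 2.97, 0.843, 1.97 and 1.03 CPM, from 144, 49, 38 and 67 counts. In both groups replicate 1 was the higher library.

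The inducible HSP70 genes had lower counts than their partner chaperones. If reads matching more than 1 gene were dropped, Hspa1a and Hspa1b were undercounted, so their levels, ratios and ranks given here are uncertain. Hspa1a had 7.03, 6.31, 6.95 and 5.50 CPM and Hspa1b 10.5, 8.24, 8.82 and 10.0 CPM. Their sum, which does not depend on how shared reads were split but would be undercounted too if those were dropped, was 17.5, 14.6, 15.8 and 15.5 CPM. Hsph1, a large HSP70-like exchange factor, had 71.3, 62.4, 75.6 and 63.0 CPM. Dnajb1, an HSP40 co-chaperone, had 42.5, 38.5, 55.2 and 40.1 CPM, D1 standing above the other libraries. Hsph1 lay 4.03 to 4.67 times above Hspa1a per kilobase. Hspa8, the HSP70 made constitutively in most cells, averaged 921 ± 127 CPM in N1 and N2 and 923 ± 136 CPM in D1 and D2 (SD, n = 2 each), and lay 90.7 to 104 times above Hspa1a per kilobase.

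The ranks of the levels spread over nearly the whole range of expressed genes. Against 19721 genes other than Ins1 and Ins2 that passed the filter on low counts, 25 of the 36 genes lay above the median of 3.03 CPM per kilobase and 8 lay above the 90th percentile, at 24.5 CPM per kilobase. The top 8 were Ier3 (141 ± 26.7 CPM per kilobase, SD, n = 2, non-depleted libraries), Jund (84.8 ± 13.1), Junb (79.4 ± 8.97), Socs3 (59.1 ± 1.42), Btg2 (54.2 ± 1.00), Dusp4 (35.8 ± 1.55), Jun (35.7 ± 0.417) and Klf6 (31.9 ± 1.94). In this order the neighbours Jund and Junb, and Dusp4 and Jun, differed by less than their spread. Fos stood at percentile 66.2, Egr1 at 70.9, Atf3 at 63.8, Hspa1b at 51.8 and Hspa1a at 44.7. Below the median were 11 genes, Nr4a2, Hspa1a, Npas4, Egr3, Egr2, Fosb, Klf2, Arc, Nr4a3, Dusp2 and Egr4. A high rank was thus not general to the list: it held for 4 roles of regulators in part (AP-1, IER, phosphatases, feedback) and for Klf6, while no EGR, NR4A or heat shock member reached the 90th percentile.

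**Figure D2:**
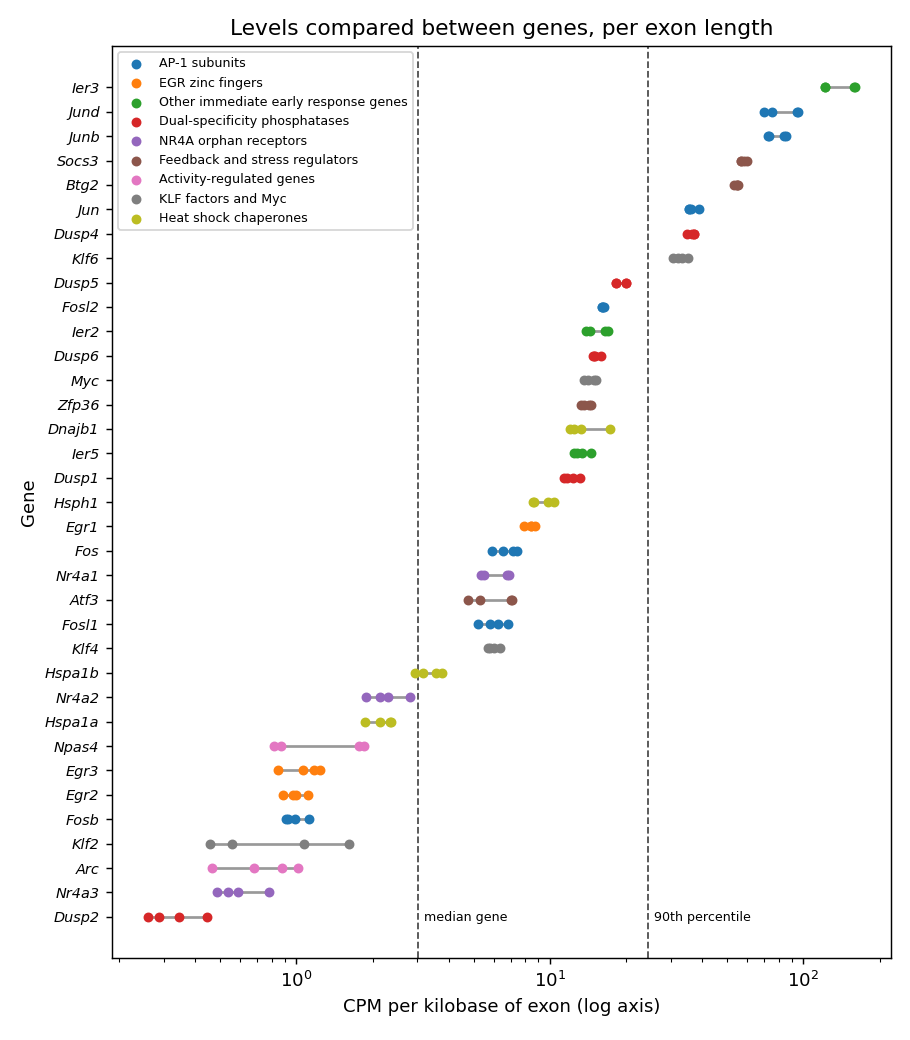
Level of 35 genes in CPM per kilobase of exon on a log axis, ordered by their mean, with 1 point per library and a bar from the lowest to the highest library. Dashed lines mark the median and the 90th percentile of the 19721 genes; Egr4 is not drawn. Ier3, Jund and Junb lead, and the HSP70 genes Hspa1a and Hspa1b lie near the median gene.

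The design asks whether removing insulin sequences changed the level of other genes, and for this list no member passed the test. In the edgeR quasi-likelihood test over all 19723 genes tested, 0 of the 35 members tested passed an adjusted p under 0.05 (Benjamini-Hochberg), against 0.0101% of all genes tested, which were Ins1 and Ins2. Egr4 did not pass the filter on low counts. At an unadjusted p under 0.05 there were 0 members with edgeR and 0 with DESeq2, which called 0 at its adjusted threshold too. At that unadjusted level, 0.416% of all genes passed in edgeR. With the replicate number as a term in the edgeR fit, 4.32% of all genes passed it, as did 3 members (8.57% of 35). None of those members passed after adjustment. Standard errors were wider on group alone for Npas4 (0.51 against 0.16 with the replicate term) and Dnajb1 (0.18 against 0.06). For Dusp2 the order was the reverse (0.43 against 0.48). The fit on group alone could therefore miss changes smaller than the difference between replicates. In the test on group alone, 17 of the 35 members had a log2 fold change (insulin-depleted over non-depleted) above 0 and 18 below. Their median was -0.0024, beside -0.0025 over the genes tested other than Ins1 and Ins2, members included. For 30 genes of the 36 the ratio of group means lay within 10% of 1.

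The size of change that the fit on group alone could have missed differs between genes. The half-width of the 95% interval on the log2 scale had a median of 0.39 and ranged from 0.18 for Btg2 to 1.69 for Klf2. For 30 of 35 genes the whole interval lay within a 2-fold change either way. For Dusp2, Nr4a3, Npas4, Arc and Klf2 it reached beyond that, so in this fit a 2-fold change could not be told from none. With the replicate number as a term, SEs were 0.16 for Npas4, 0.20 for Nr4a3, 0.25 for Arc, 0.30 for Klf2 and 0.48 for Dusp2. That term assumes that same-numbered libraries belong together, which the labels do not say. Fos had a log2 fold change of 0.09 (SE 0.15, 95% interval -0.30 to 0.47), and Junb -0.02 (SE 0.11, -0.29 to 0.25). Egr1 had 0.07 (SE 0.10, -0.18 to 0.31) and Ier3 -0.01 (SE 0.19, -0.48 to 0.45). Atf3 had -0.08 (SE 0.25, -0.72 to 0.55), Hspa1a -0.11 (SE 0.20, -0.62 to 0.39) and Hspa1b 0.01 (SE 0.18, -0.45 to 0.46). Each adjusted p in this paragraph and the next was 1.00 (edgeR).

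**Figure D3:**
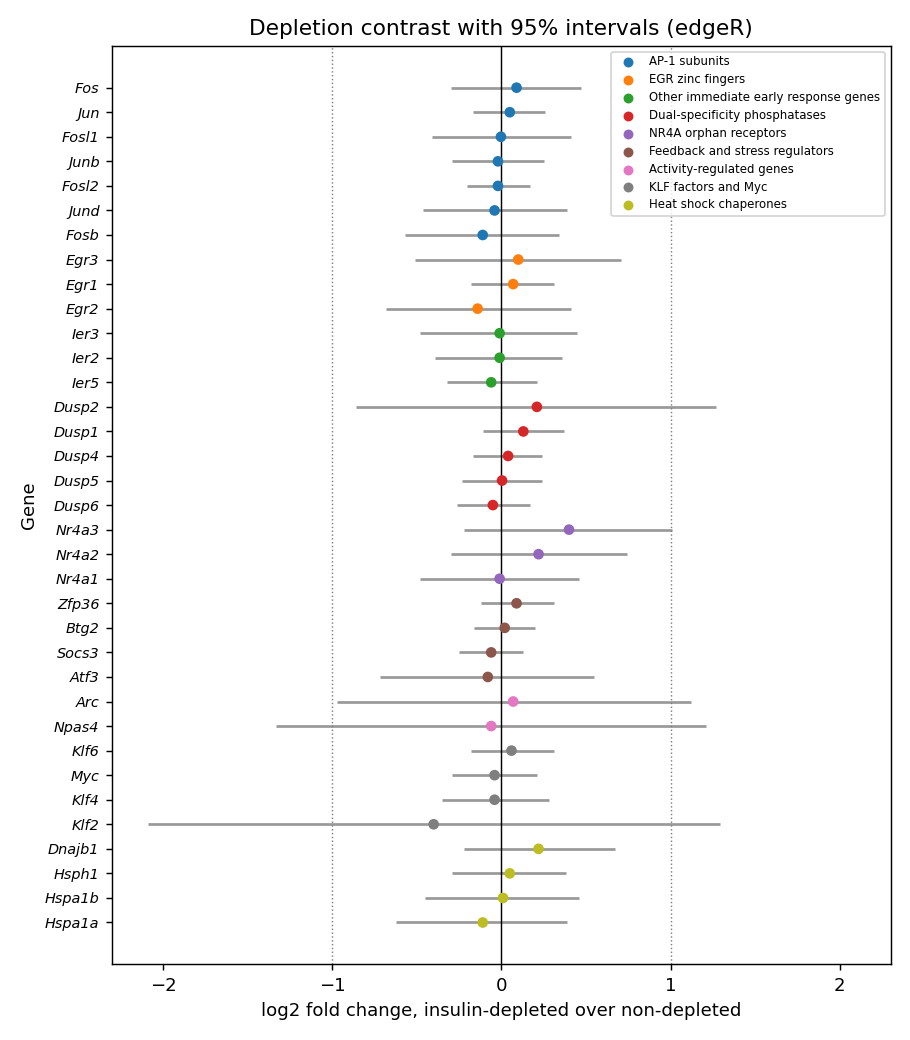
Log2 fold change of 35 genes, insulin-depleted over non-depleted (points), with 95% intervals from the edgeR fit (bars) and dotted lines at a 2-fold change. Every interval includes 0, and those of Klf2, Npas4, Arc and Dusp2 are the widest.

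The estimates farthest from 0 were those of Nr4a3, Klf2, Nr4a2 and Dnajb1. Nr4a3 averaged 3.07 ± 0.206 CPM in N1 and N2 and 4.09 ± 0.815 CPM in D1 and D2 (SD, n = 2 each), a log2 fold change of 0.40 (SE 0.25, -0.22 to 1.01), and 0.18 without D1. Klf2 had -0.40 (SE 0.68, -2.09 to 1.29), which turned to 0.80 without N1 and 0.06 without D2, and became -1.05 without N2 and -0.90 without D1. Dnajb1 had 40.5 ± 2.86 and 47.7 ± 10.7 CPM, a log2 fold change of 0.22 (SE 0.18, -0.22 to 0.67), -0.03 without D1 and 0.45 without D2. Nr4a2 also had 0.22 (SE 0.21, -0.30 to 0.74), with 0.01 without D1 and 0.07 without N2. Npas4, at -0.06 (SE 0.51, -1.33 to 1.21), ranged from -0.63 without D1 to 0.66 without N1. D1 and D2 both lay above N1 and N2 for Dusp1, Nr4a3 and Zfp36, and below them for Socs3. The groups overlapped for the other 32 genes. Over all genes tested, 10.2% lay above and 9.33% below, so 3 and 1 of 36 are no more than the background. For Dusp1 (log2 fold change 0.13), Nr4a3, Zfp36 (0.09), Socs3 (-0.06) and Egr1 (0.07) the group means differed by more than the larger SD, without passing the test.

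By role, the median log2 fold changes were -0.02 for 7 AP-1 subunits, 0.07 for 3 tested EGR factors, -0.01 for 3 IER genes, 0.04 for 5 phosphatases and 0.22 for 3 NR4A receptors. They were -0.02 for 4 feedback and stress regulators, 0.01 for 2 activity-regulated genes, -0.04 for the KLF factors with Myc and 0.03 for 4 heat shock chaperones. No role held a called gene.

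For 31 of the 36 genes the group means differed by less than the larger SD, and for a few genes the replicates of a group stood wide apart. Npas4 differed 2.26-fold between N1 and N2 and 2.01-fold between D1 and D2, higher in replicate 1 each time. Klf2 differed 3.52-fold and 1.91-fold, in the same direction. Among 34 genes averaging 1 CPM or more, these 2 had replicates at least 1.5-fold apart in the same direction in both groups, against 4.33% of 14797 genes at that level. Arc differed 2.20-fold between N1 and N2 and 1.29-fold between D1 and D2, and Dusp2 1.19-fold and 1.72-fold from few counts. Atf3, 1.33-fold and 1.49-fold, Ier3, 1.31-fold and 1.29-fold, and Nr4a1, 1.24-fold and 1.30-fold, were higher in replicate 1, and Jund, 1.25-fold and 1.36-fold, in replicate 2. Fosl2, Btg2, Zfp36, Socs3, Dusp4, Dusp6 and Egr1 lay within 1.06-fold in both groups. Of 35 genes, 20 were higher in replicate 1 of both groups, 12 higher in replicate 2 of both and 3 differed in sign (Jun, Btg2 and Hspa1b). At 1 CPM or more, 91.2% of 34 members had the same sign in both groups. The share was 76.5% of all 14797 genes at that level, with members included and without matching for level. The median absolute log2 ratio between replicates was 0.19 for N1 and N2 and 0.18 for D1 and D2, beside 0.16 and 0.18 for the 14797 genes. With 2 libraries a group, no test of these differences was made. The labels do not say whether same-numbered libraries share RNA. If they do, agreement between the groups is the same difference read again, not a repeat.

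**Figure D4:**
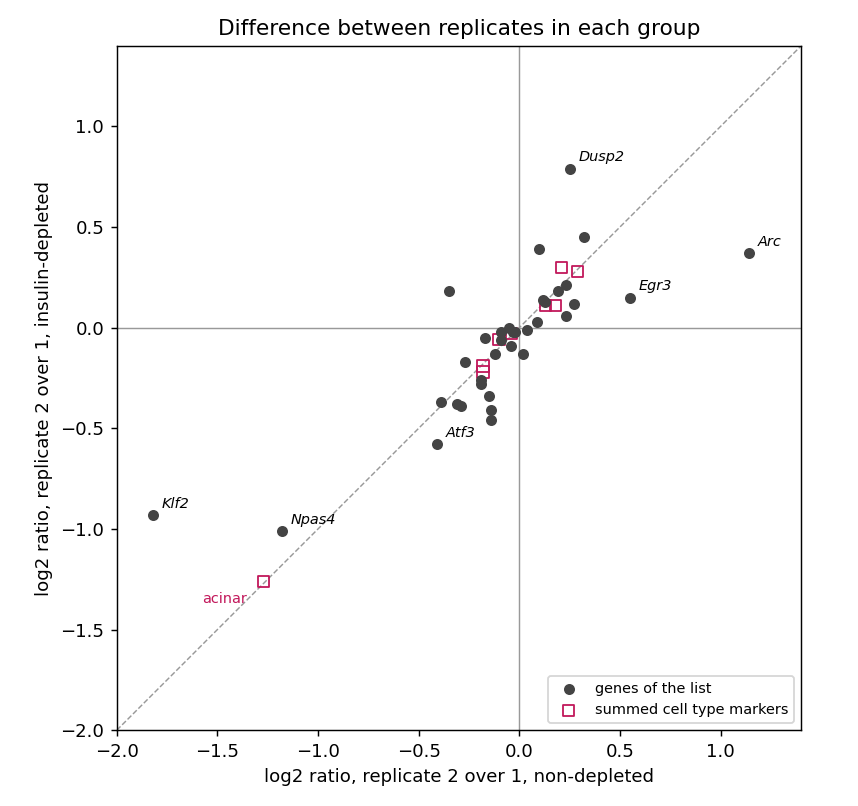
Log2 ratio of replicate 2 to replicate 1 in non-depleted (x axis) and insulin-depleted libraries (y axis), for 35 genes of the list (filled points) and for the summed CPM of 9 cell type marker lists (open squares); the dashed line marks equal ratios. Npas4 and Klf2 lie at the lower left, as does the acinar marker sum.

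In bulk RNA, fewer cells of a type and less RNA per cell cannot be told apart, and marker genes moved between the same libraries. The 7 acinar markers, genes of the digestive enzyme cells around islets, summed to 10940, 4549, 10962 and 4562 CPM, a 2.40-fold difference in each group. Ctrb1 and Pnlip were the highest of them, none was at 0 in all libraries, and Amy2a5 had 0.0308 to 0.104 CPM. The 8 beta-cell markers summed to 18527 to 19812 CPM and the 3 delta-cell markers to 606 to 744 CPM, so islet cells were present as labelled. The beta-cell sum, nearly all of it Iapp, was 1.07-fold and 1.04-fold higher in replicate 1, but 6 of the 8 markers were higher in replicate 2 of both groups. The sum of 6 alpha-cell markers was 1.13-fold and 1.14-fold higher in replicate 1, as were 4 of its markers in both groups. The delta-cell sum was 1.23-fold and 1.21-fold higher in replicate 2, carried by Sst, and of its other 2 markers none was higher there in both groups. The sum of 7 endothelial markers was 1.10-fold and 1.08-fold higher in replicate 2, with 6 of them higher there in both groups. The 7 immune markers summed to 72.9, 84.3, 68.5 and 84.3 CPM. Of them, 3 were higher in replicate 2 of both groups and 2 in replicate 1 of both. All 7 acinar markers were higher in replicate 1 of both groups. Sums of ductal, stellate and fibroblast, and Schwann-cell markers differed by at most 1.16-fold between replicates. Some single markers moved more than these sums, and in opposite directions. In the ductal list, Krt19 had 29.3, 18.7, 30.6 and 16 CPM and Krt7 had 304, 421, 298 and 409 CPM. The part of acinar or other cells in the differences of Npas4, Klf2, Atf3 or Ier3 was not tested.

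Other genes of the same responses gave levels for comparison. Of 16 upstream kinases and factors, 0 passed the test (edgeR, adjusted p under 0.05, and 0 at an unadjusted p under 0.05), 7 lay above and 9 below 0, and the median log2 fold change was -0.01. Among the highest were Mapk14, with 298 ± 21.2 and 299 ± 22.3 CPM in the non-depleted and the depleted group, Mapk3 (127 ± 14.2 and 127 ± 8.54) and Creb1 (106 ± 0.181 and 106 ± 1.38; SD, n = 2 each). Mapk14 encodes a p38 stress kinase and Creb1 encodes CREB. Of 35 other early response genes, 0 passed (0 unadjusted), 14 lay above and 21 below 0, and the median was -0.01. Their highest were the survival gene Mcl1 (241 ± 6.59 and 241 ± 11.2 CPM), Nfkbiz (157 ± 25.3 and 160 ± 24.7), the NF-kappaB inhibitor gene Nfkbia (154 ± 33.9 and 143 ± 26.4) and the prostaglandin synthase gene Ptgs2 (131 ± 10.0 and 134 ± 15.9). Nfkbia had 178, 130, 161 and 124 CPM, higher in replicate 1 of both groups. Of 13 other heat shock genes, 0 passed (0 unadjusted), 5 lay above and 8 below 0, with a median of -0.0024. These were led by Hsp90ab1 (1701 ± 75.4 and 1690 ± 97.7 CPM), Hspa8, Hsp90aa1 (623 ± 84.4 and 622 ± 69.4) and the mitochondrial chaperone Hspd1 (250 ± 2.33 and 254 ± 5.04).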

How the data were processed

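The authors deposited 1 table of gene counts, whole numbers for 55536 genes in 4 libraries, with no normalization. Columns without depletion, deposited as whole numbers too, are entered under expected counts only because their headers hold the word size; that tag reads as size selection, the insulin-depleted headers lack it, and a difference in size selection cannot be told apart from depletion. They were matched by lacking the depletion tag and by replicate number. Cutadapt 4.8, STAR 2.7.11b, GRCm38 and mm10 are listed, per the submitters' processing notes, with no role; the counter is not given in the sources used here. All identifiers matched GENCODE M21 (GRCm38), the source of coordinates, exon lengths (union of exons) and 31-base stretches. Among counts of 2 to 9, 80.01 to 84.01% were even. Whether each mate of a read pair was counted was not tested, and if so counting intervals are too narrow.

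edgeR 4.0.16 in R 4.3.3 was run on all genes (filterByExpr, TMM, estimateDisp, robust glmQLFit, glmQLFTest on group alone; Benjamini-Hochberg threshold 0.05; common dispersion 0.0291) and tested on simulated data. Standard errors came from the fold change and test statistic. DESeq2 1.42.0 was an alternative. Levels use CPM of totals without Ins1 and Ins2, and fold changes come from the TMM-scaled fit. The 36 members, lists and tests were chosen with earlier results of these data known. All members were named, and from other lists the 4 genes of highest mean CPM, of which 1 is not reported here.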

Additional observations from a re-analysis of the deposited data

How the results depend on the processing

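The count of called genes, 2 in the test on group alone, stayed 2 with DESeq2, with DESeq2 size factors, with totals lacking Ins1 and Ins2 and no TMM, with no low-count filter, with counts divided by 2, and with any 1 library left out (range 2 to 2). With the replicate number as a term (replicate block) it was 9. Under all 10 alternatives, 0 list members and 0 other response genes were called. The labels do not say that same-numbered libraries share RNA; their replicate log2 ratios correlated at 0.844 over 11595 genes with at least 5 CPM. With the block, Dnajb1 had the smallest adjusted p of the members, 0.640 (edgeR, log2 fold change 0.20, SE 0.06), and 3 members (Dnajb1, Klf6 and Dusp1) had an unadjusted p under 0.05, or 8.57% of 35, beside 4.32% of all genes in that fit. The block also changed standard errors of wide estimates: Npas4 had 0.00 (SE 0.16), Arc 0.07 (SE 0.25) and Klf2 -0.16 (SE 0.30), against SEs of 0.51, 0.42 and 0.68 without it. With all libraries kept, no member's log2 fold change moved by more than its SE, and 0 to 2 of 35 changed sign per alternative. With a library left out, 5 to 9 of 35 moved by more than that and 9 to 12 changed sign, none of them called. A lone library was then assumed to vary like the others. Group means of 7 of 72 moved by more than the SD with CPM of all counts and of 10 with TMM scaling. With the longest transcript as length, 12 of 36 levels per kilobase moved by more than the SD over libraries, and Dusp1 changed rank most, by 6 places. Ratios between replicates moved beyond the spread of the 2 groups' ratios for 18 of 70 with TMM scaling, and 1 changed sign. Egr4 and Dusp2 had at most 58 counts in any library, which limits their precision.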
